A study of Mus musculus with 4 samples.

Results

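The 7 genes described here encode the core of antigen presentation by major histocompatibility complex class II (MHC class II) molecules. They were H2-Aa, H2-Ab1 and H2-Eb1, which encode chains of the surface molecule, Cd74, which encodes the invariant chain, H2-DMa and H2-DMb1, which encode the peptide editor DM, and Ciita, which encodes the class II transactivator. They were chosen by name, 7 of the 55253 genes matched by symbol between the gene matrices of 2 single-cell libraries. Their raw counts of unique molecular identifiers (UMIs, each standing for 1 captured transcript) were followed across 8 gates, a gate being the set of cells with UMIs of 1 chosen gene and not of the others (at least 1 UMI, or 3 for C1qa and Krt8, with Csf1r allowed beside the myeloid gate genes). The gate genes were Ms4a1 (B cells), Xcr1 (type 1 conventional dendritic cells), Cd209a (a dendritic type), Fscn1 (migratory dendritic cells) and C1qa (macrophages). The rest were Csf1r without the others (meant for monocytes), Il1rl1 (group 2 innate lymphoid cells) and Krt8 (epithelium). A gate gene excluded a cell from another gate only at its own minimum, so Csf1r-gated cells could hold fewer than 3 C1qa UMIs. Cells with a Cd3e UMI and no gate gene served as a T cell reference.

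The cells were CD45+ cells from collagenase-digested mouse mammary glands, pooled into libraries here called library A and library B (the earlier and the later by the year in their names), and marked before pooling with hash tags (antibodies carrying a DNA barcode). The deposited sheets name the library A tags Nulliparous, Gestation, Lactation and, on tag HT2, Germ-free, and the library B tags Gestation, Lactation, Involution, Regression, Balb/c, GF and, again on HT2, Germ-free. The library titles list no germ-free sample in library A and a single GF in library B, so the name of HT2 is disputed and its samples are called HT2 here. Gestation and Lactation were therefore the only undisputed names with a sample in each library, and every other name except that of HT2 had 1 sample. The number of animals behind a tag, their age, the days of each stage, the strain of the samples other than Balb/c and the reproductive stage of the Balb/c and GF samples could not be read from the labels. Because nothing says that the samples came from separate animals or cultures, p-values measure only the spread between these samples, which may be technical.

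In an antigen-presenting cell, an alpha and a beta chain pair in the endoplasmic reticulum with the invariant chain, which fills the groove and carries the complex to endosomes. Proteases such as cathepsin S cut the invariant chain to a short remnant, and DM exchanges that remnant for a peptide. Transcription of the chain, invariant chain and DM genes depends largely on Ciita. Ciita binds no DNA itself but docks on factors that sit on the X and Y boxes of class II promoters. B cells, dendritic cells and macrophages are the professional presenters, and in the mammary gland macrophages lie along the ducts.

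Library A held 21604 cells and 56300251 UMIs and library B 21177 cells and 90642638 UMIs, with medians of 1599 and 3049 UMIs per cell. After tag calling and removal of doublet calls 15287 and 14612 cells were analysed, of which 3617 and 5609 fell into a gate and 3225 and 4174 into the Cd3e reference. The libraries shared 139 cell barcodes. The Ms4a1, C1qa and Xcr1 gates carried markers of the cell they stand for in most of their cells: Cd79a was seen in 69.3% and 92.7% of Ms4a1-gated cells, C1qb in 98.8% and 97.1% of C1qa-gated cells and Clec9a in 58.4% and 69.8% of Xcr1-gated cells. Of the rest, 4 gates were read as mixed, each by 1 marker given here. Clec10a was seen in 43.8% and 52.0% of Cd209a-gated cells and Ccr7 in 70.4% and 37.2% of Fscn1-gated cells. Gata3 was seen in 44.8% and 53.6% of Il1rl1-gated cells and Ccr2 in 41.0% and 48.1% of Csf1r-gated cells. Clec10a was not particular to Cd209a-gated cells. Of C1qa-gated cells in Gestation and Lactation, 2.08% and 12.4% held it in library A and 48.2% and 47.4% in library B.

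Promoter windows of 300 bases (250 before to 50 after the annotated start, from RefSeq on build GRCm38.p6) were found for 4 of the 7 members. 3 sets of letters were searched on both strands: GATTGG, the core of the Y box, AACNGATG, a core of the X box, and TGNGTCA, a core of the X2 box. The windows of H2-Aa (chr17:34287774-34288073, minus strand), H2-Eb1 (chr17:34305617-34305916, plus strand) and H2-DMb1 (chr17:34152941-34153240, plus strand) are shown because they hold such letters in the proximal promoter. Those of H2-Eb2 (chr17:34325425-34325724, plus strand) and H2-DMb2 (chr17:34144999-34145298, plus strand), paralogs that are no members, are shown because they match the same X and Y search letters as H2-Eb1 and H2-DMb1, while their levels across gates went another way, as given with the pathway genes. Capitals mark the matches, and each window is read 5′ to 3′ on the strand of its gene.
H2-Aa: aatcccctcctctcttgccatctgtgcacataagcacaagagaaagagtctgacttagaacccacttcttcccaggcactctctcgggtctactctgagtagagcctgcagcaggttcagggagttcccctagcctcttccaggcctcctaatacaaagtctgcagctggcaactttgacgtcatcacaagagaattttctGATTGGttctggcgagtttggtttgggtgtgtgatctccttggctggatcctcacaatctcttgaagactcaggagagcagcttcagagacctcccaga
H2-Eb1: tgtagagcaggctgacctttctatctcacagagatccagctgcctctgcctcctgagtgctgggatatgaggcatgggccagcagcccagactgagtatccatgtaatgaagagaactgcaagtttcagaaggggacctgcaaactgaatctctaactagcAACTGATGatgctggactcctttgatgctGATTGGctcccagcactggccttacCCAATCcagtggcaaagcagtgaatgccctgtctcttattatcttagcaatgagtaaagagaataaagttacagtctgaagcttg
H2-DMb1: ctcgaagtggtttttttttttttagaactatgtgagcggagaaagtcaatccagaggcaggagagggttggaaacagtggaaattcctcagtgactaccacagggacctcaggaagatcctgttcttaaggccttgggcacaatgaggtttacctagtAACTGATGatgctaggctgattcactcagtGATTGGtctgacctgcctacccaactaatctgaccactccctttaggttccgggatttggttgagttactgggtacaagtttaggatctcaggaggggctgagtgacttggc
H2-Eb2: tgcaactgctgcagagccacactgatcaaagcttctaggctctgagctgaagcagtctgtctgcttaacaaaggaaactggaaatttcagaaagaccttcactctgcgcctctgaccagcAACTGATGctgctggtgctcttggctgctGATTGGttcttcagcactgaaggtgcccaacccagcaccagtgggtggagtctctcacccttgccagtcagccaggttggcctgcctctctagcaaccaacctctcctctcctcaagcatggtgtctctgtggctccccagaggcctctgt
H2-DMb2: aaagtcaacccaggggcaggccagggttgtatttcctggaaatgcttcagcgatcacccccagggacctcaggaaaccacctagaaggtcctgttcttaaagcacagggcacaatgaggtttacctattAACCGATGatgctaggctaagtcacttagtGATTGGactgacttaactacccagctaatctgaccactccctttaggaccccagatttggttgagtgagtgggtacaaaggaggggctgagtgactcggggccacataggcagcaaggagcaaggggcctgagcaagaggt
The Y core stood at -49 from the start of H2-Aa, -60 from that of H2-Eb1 and -62 from that of H2-DMb1, and H2-Eb1 held another on the opposite strand. An X core stood at -89 in H2-Eb1 and at -92 in H2-DMb1, and none of the H2-Aa window matched those letters. H2-DMa had 2 windows, 1 without a match and 1 with a Y core and an X2 core. Of 32851 windows in the table, 16.1% held the Y core, 2.32% the X core and 15.4% the X2 core. An X core followed by a Y core, their first bases 29 or 30 apart, was found in 5 windows (0.0152%): those of H2-Eb1, H2-DMb1, H2-Eb2, H2-DMb2 and BC051142. That spacing was chosen after the windows were seen, and the matches are letters only, not evidence of binding.

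The chain genes and Cd74 were highest in the C1qa, Xcr1 and Cd209a gates and intermediate in the Ms4a1 and Csf1r gates. The DM genes were highest in Xcr1 and Cd209a. Over all gated cells of library A, H2-DMa was 5.11 per 10000 UMIs in C1qa and 4.78 in Csf1r, and H2-DMb1 2.905 and 2.41. In library B the same pairs were 5.80 and 3.73, and 3.655 and 2.29. All of these genes were lower in the Fscn1 gate as a whole and near the T cell reference in Gata3-bearing cells of the Il1rl1 gate. The Fscn1 gate was mixed: its Ccr7-bearing cells had 38.9 of H2-Aa and 37.0 of H2-Eb1 per 10000 UMIs in library B, beside 38.4 and 27.1 over all Ms4a1-gated cells, and 27.7 and 22.1 in library A, beside 32.2 and 20.1. Ciita alone was as high in the Ms4a1 gate as in any other. The levels below are UMIs of the gene per 10000 UMIs of the summed cells of 1 gate and 1 sample, given for sums of at least 20 cells unless stated, and a gene is compared across gates and not with another gene.

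**Figure D1:**
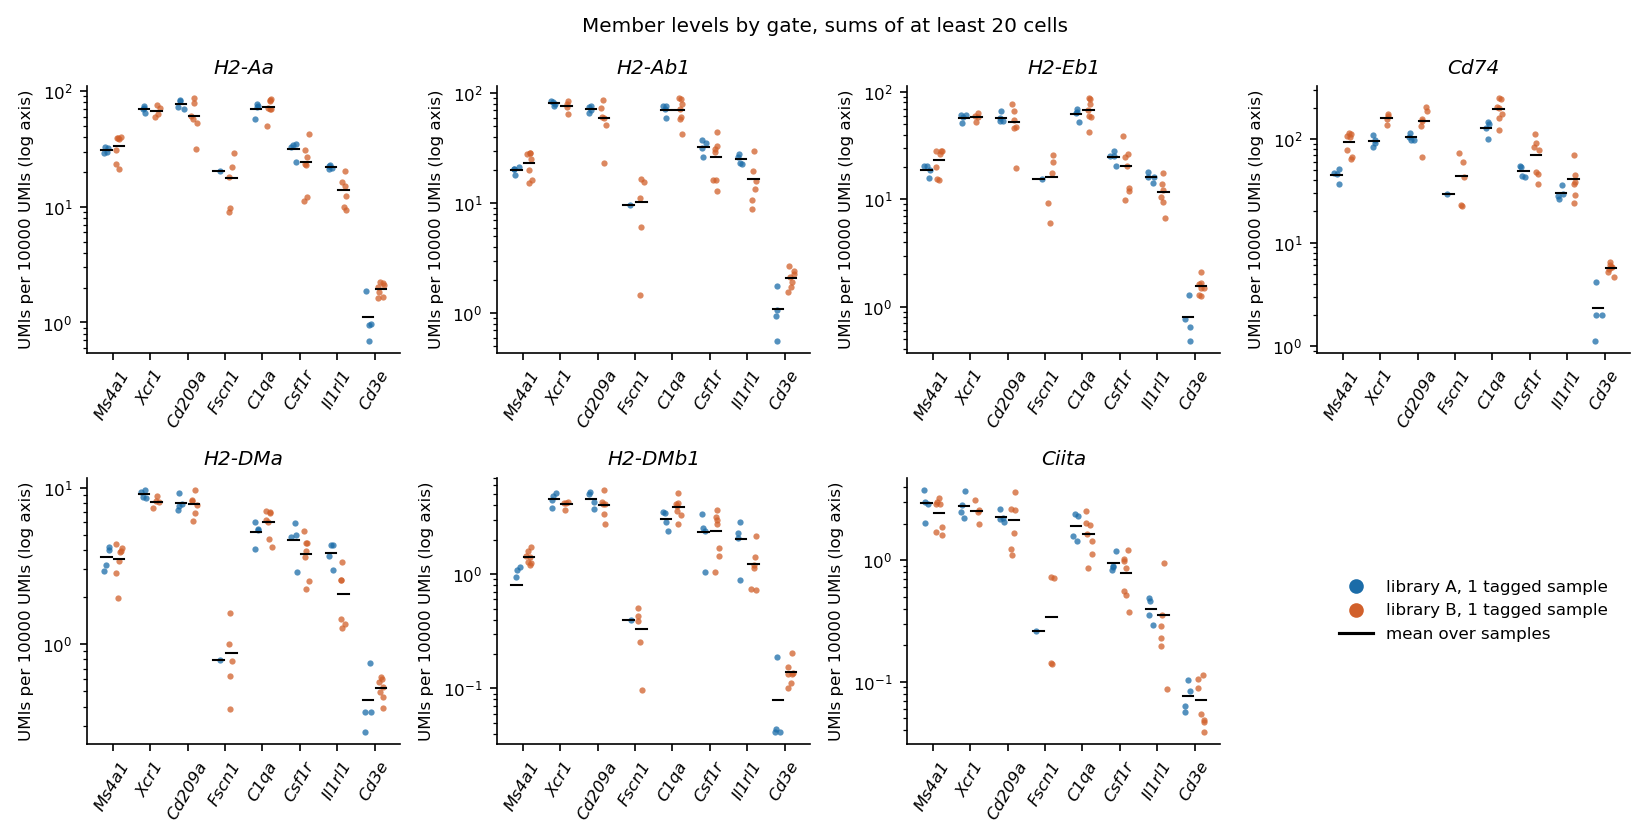
Levels of the 7 genes (panels) by gate (x axis), as UMIs per 10000 UMIs on a log axis, with 1 point per tagged sample and bars at the means of each library; 2 sums with 0 UMIs are not drawn (H2-DMb1 in Ms4a1, Lactation of library A, and Ciita in Fscn1, Gestation of library B). In library A the C1qa, Xcr1 and Cd209a points lie above the other gates for Cd74 and the 3 chains, whereas the Ms4a1 points of Ciita (1.61 to 3.825 over both libraries) reach as high as its Xcr1 points (1.99 to 3.70).

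For Cd74, the invariant chain, the C1qa gate gave 99.8 in Nulliparous, 148 in Gestation, 142 in Lactation and 128 in HT2 of library A, and 122 (HT2) to 249.5 (Gestation) with a median of 198 over the 7 samples of library B. All of these lay above every Ms4a1 and Csf1r sum of the same library: the Ms4a1 gate gave 36.6 to 50.9 in library A and 64.4 to 115 in library B, and the Csf1r gate 43.1 to 55.4 and 36.4 to 112.5. The means ran from 129 ± 21.3 (SD, n = 4) in the C1qa gate through 104 ± 7.90 in Cd209a and 95.8 ± 11.1 in Xcr1 to 49.3 ± 6.53 in Csf1r and 45.25 ± 6.11 in Ms4a1 (each n = 4) in library A. In library B they were 194 ± 45.8 (SD, n = 7) in C1qa, 158.9 ± 17.01 (n = 4) in Xcr1, 150.2 ± 48.1 (n = 6) in Cd209a, 93.0 ± 22.1 (n = 7) in Ms4a1 and 70.85 ± 28.0 (n = 7) in Csf1r. The Xcr1 and Cd209a samples overlapped in both libraries, as did the Ms4a1 and Csf1r samples, so the order of those neighbours was not separable from their spread. The T cell reference held 2.32 ± 1.28 (n = 4) and 5.65 ± 0.586 (n = 7).

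The mean of Cd74 stood higher in library B than in library A in each of these gates, and in the Ms4a1 and Xcr1 gates the samples of the 2 libraries did not overlap. The class II chains differed less in the Ms4a1 and C1qa gates: H2-Aa averaged 31.0 ± 1.94 (n = 4) and 33.2 ± 8.14 (n = 7) in Ms4a1 and 70.6 ± 9.40 and 73.5 ± 12.2 in C1qa. Over all Ms4a1-gated cells H2-Ab1 was 20.7 and 26.9 and H2-Eb1 20.1 and 27.1, against 47.2 and 107.7 for Cd74. Cd74 over the summed UMIs of the 3 chains was 0.578 to 0.695 in library A and 1.05 to 1.28 in library B in the Ms4a1 gate, and 0.582 to 0.686 and 0.8455 to 0.954 in the C1qa gate. The libraries differ in depth and in the tags they hold, and the part of either in this was not tested.

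Almost every cell of the presenting gates held a Cd74 UMI. The share was 97.75% of 1153 Ms4a1-gated cells (exact 95% binomial interval 96.7 to 98.5) and 99.6% of 961 C1qa-gated cells (98.9 to 99.9) in library A, at medians of 890 and 2300 UMIs per cell. It was 16.2% in the reference (14.9 to 17.5) at a median of 1540 UMIs, and 70.5% (69.05 to 71.8) at 3064 UMIs in library B, and these shares stand for the background. With each cell thinned to 800 UMIs (371 of the 1153 Ms4a1-gated cells were too shallow and left out), the library A shares were 94.8% in the Ms4a1 gate, 98.4% in C1qa, 96.5% in Xcr1, 94.35% in Cd209a, 60.6% in Fscn1, 60.4% in Csf1r, 30.5% in Il1rl1 and 8.40% in the reference. In library B they were 96.6%, 96.4%, 88.8%, 78.4%, 55.1%, 61.6%, 42.6% and 29.8% in the same order. The first 4 gates were thus nearly uniform in library A, whereas a large minority of Fscn1-gated and Csf1r-gated cells lacked a Cd74 UMI at that depth.

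Among the chains, H2-Aa (alpha chain of I-A) was 56.9 to 78.0 in the C1qa gate, 64.5 to 74.4 in Xcr1 and 70.0 to 83.5 in Cd209a in library A, against 29.2 to 33.0 in Ms4a1 and 24.5 to 35.0 in Csf1r. H2-Ab1 (beta chain of I-A) was 59.0 to 76.8 in C1qa, 75.7 to 84.15 in Xcr1 and 66.2 to 77.0 in Cd209a, against 18.2 to 21.2 in Ms4a1 and 26.2 to 37.6 in Csf1r. H2-Eb1 (beta chain of I-E) was 52.8 to 69.5 in C1qa, 51.9 to 61.1 in Xcr1 and 53.3 to 66.2 in Cd209a, against 15.7 to 20.6 in Ms4a1 and 20.5 to 28.4 in Csf1r. For each chain the library A samples of the 3 high gates overlapped one another, and none overlapped those of the Ms4a1 or Csf1r gates. In library B the spread was wider: for H2-Aa the Cd209a gate reached from 31.55 (Balb/c) to 87.0 (Involution) and the Csf1r gate from 11.3 (Gestation) to 42.3 (Regression). These overlapped through Balb/c alone, the next lowest Cd209a sum being 53.2.

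The mean levels of both DM genes were higher in the Xcr1 and Cd209a gates than in C1qa. Among sums of at least 20 cells, only H2-DMa in Xcr1 stood apart in both libraries. H2-DMa was 9.04 ± 0.537 (n = 4) and 8.12 ± 0.561 (n = 4) in the Xcr1 gate of libraries A and B, 7.98 ± 0.855 (n = 4) and 7.83 ± 1.23 (n = 6) in Cd209a, 5.22 ± 0.844 and 5.996 ± 1.161 in C1qa, and 3.59 ± 0.602 and 3.496 ± 0.835 in Ms4a1. H2-DMb1 was 4.56 ± 0.561 and 4.095 ± 0.280 in Xcr1, 4.58 ± 0.700 and 4.02 ± 0.940 in Cd209a, 3.05 ± 0.545 and 3.86 ± 0.754 in C1qa, and 0.798 ± 0.540 and 1.42 ± 0.194 in Ms4a1. The lowest Xcr1 sum of at least 20 cells lay above every C1qa sum for H2-DMa (8.525 against 6.05 in library A, 7.42 against 7.085 in library B). That minimum left out the Xcr1 sums of Lactation, Regression and Balb/c in library B (18, 19 and 15 cells). The left-out Balb/c sum lay below the highest C1qa sum, so the separation in library B depended on the minimum. Between Cd209a and C1qa neither DM gene was called in the fit described below (H2-DMa 0.27, adjusted p 0.21, and H2-DMb1 0.07, adjusted p 0.84, by edgeR's quasi-likelihood test), and Xcr1 was not tested against C1qa. H2-DMb1 shares most of its sequence with H2-DMb2, and how the counting split reads between them is not given in any source used.

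Ciita was the exception to the order. Its level in the Ms4a1 gate was 2.89 in Nulliparous, 2.04 in Gestation, 3.825 in Lactation (43 cells) and 3.03 in HT2 in library A, and 1.61 to 3.255 with a median of 2.91 in library B. In the Xcr1 gate it was 3.70, 2.51, 2.22 and 2.85 in library A in the same order, and 1.99 to 3.12 in library B. The Cd209a gate averaged 2.29 ± 0.249 (n = 4) and 2.15 ± 0.976 (n = 6), the C1qa gate 1.94 ± 0.484 (n = 4) and 1.65 ± 0.569 (n = 7), the Csf1r gate 0.951 ± 0.170 and 0.792 ± 0.311, and the reference 0.0764 ± 0.0212 and 0.0709 ± 0.0310. A Ciita UMI was seen in 19.3% of Ms4a1-gated, 22.9% of Xcr1-gated, 14.5% of Cd209a-gated and 14.7% of C1qa-gated cells thinned to 800 UMIs in library A, and in 22%, 17.02%, 12.3% and 11% in library B. In the reference it was seen in 0.714% and 0.650%, so these shares lie far above the T cell background.

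The gates were then compared in 1 fit over all gates and samples with the sample as a block (edgeR's quasi-likelihood test, Benjamini-Hochberg adjustment over 7164 genes, threshold 0.05), where fold changes are log2 with a standard error (SE). Between the C1qa and Ms4a1 gates 6 of 7 members were higher in C1qa, where 35.2% of all genes tested were called higher, and 1 was lower, against 31.0%. The 6 were H2-Ab1 (1.90, SE 0.22), H2-Eb1 (1.83, SE 0.20), H2-DMb1 (1.64, SE 0.19), Cd74 (1.45, SE 0.19), H2-Aa (1.36, SE 0.18) and H2-DMa (0.86, SE 0.16), each with an adjusted p of 1.9e-06 or less. Ciita was lower in C1qa, at -0.425 (SE 0.18, adjusted p 0.035), and this call was lost in 6 of the alternatives, with values from -0.62 to -0.27 over all of them. The median over the 7 was 1.45, beside 0.01 over all genes tested.

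The Cd209a gate gave the same 6 members above Ms4a1 (27.1% of all genes were called higher), from 0.86 (SE 0.19) for Cd74 to 1.71 (SE 0.20) for H2-DMb1, with Ciita at -0.34 (SE 0.20, adjusted p 0.16). Against the C1qa gate, Cd209a was lower for Cd74 (-0.59, SE 0.19, adjusted p 0.011) and H2-Eb1 (-0.53, SE 0.20, adjusted p 0.039), 2 of 7 where 17.4% of all genes were called lower. Neither call held in Cd209a-gated cells with a Clec10a UMI, where Cd74 was at -0.29 (SE 0.19) and H2-Eb1 at -0.20 (SE 0.20), nor with library B alone. In the Clec10a-bearing cells H2-DMa was called higher than in C1qa (0.48, SE 0.17, adjusted p 0.023). Cd209a-gated cells without a Clec10a UMI had less Cd74 than those with one, 94.9 against 120.5 in library A and 77.25 against 195.5 in library B. Between Xcr1 and Cd209a, 0 of 7 members were called (22.3% of all genes were), 1 had an unadjusted p under 0.05, and the values ran from 0.15 (SE 0.20) for Cd74 to 0.46 (SE 0.22, adjusted p 0.13) for Ciita. No other tool was run on the comparisons between gates.

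All 7 members were higher in the C1qa than in the Csf1r gate (18.9% of all genes were called higher), from 0.64 (SE 0.15) for H2-DMa to 1.77 (SE 0.20) for H2-Eb1, with Cd74 at 1.63 (SE 0.19). H2-DMa lost its call in 3 of 14 alternatives (lowest value 0.28) and H2-DMb1 in 2 (lowest 0.38), and each lost it with library A alone. The Csf1r gate was not one population for these genes. The summed UMIs of the 7 per cell had quartiles of 4.95 and 255 per 10000 around a median of 28.6 in library A, and of 8.10 and 170 around 17.5 in library B, while the quartiles of C1qa-gated cells were 274 and 553 in library A. A UMI of Ly6c2, a marker of circulating monocytes, was seen in only 118 of 756 Csf1r-gated cells in library A and 319 of 1032 in library B. Csf1r-gated cells with a Ly6c2 UMI had less Cd74 than those without, 38.4 against 52.2 in library A and 46.4 against 79.7 in library B. With the gate limited to Ly6c2-bearing cells, all 7 members were higher in C1qa (20.0% of 4955 genes were called higher), with a median of 2.04.

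Fscn1-gated cells were low in every member. Fscn1 encodes an actin-bundling protein that dendritic cells induce as they leave tissue for lymph nodes. The Cd74 level was 29.3 in Nulliparous of library A, the only sum of 20 cells in that library, and 22.5 (HT2), 23.1 (Gestation), 42.9 (GF), 59.6 (Involution) and 73.2 (Regression) in library B. Relative to Xcr1 all 7 were lower (17.7% of all genes were called lower): H2-DMb1 at -3.70 (SE 0.34), H2-DMa at -3.26 (SE 0.25), H2-Ab1 at -2.99 (SE 0.31), Ciita at -2.98 (SE 0.35), H2-Aa at -1.97 (SE 0.25), H2-Eb1 at -1.945 (SE 0.27) and Cd74 at -1.855 (SE 0.25), each with an adjusted p of 1.5e-08 or less. Relative to Cd209a all 7 were lower as well (15.7% of all genes), from -3.51 (SE 0.34) for H2-DMb1 to -1.68 (SE 0.26) for H2-Eb1.

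Ccr7, the receptor that guides migrating dendritic cells, split this gate. Cd74 was 38.7 in 69 Ccr7-bearing cells and 11.9 in 29 cells without a Ccr7 UMI in library A, and 90.5 in 74 and 15.4 in 125 cells in library B. Endothelial and stromal markers were present in the gate in library B, with Pecam1 in 36.7%, Col3a1 in 14.6% and Col1a1 in 12.6% of its cells. With the gate limited to Ccr7-bearing cells (sums of at least 10 cells, chosen after the split was seen), all 7 members stayed lower than in Xcr1 (21.7% of 6490 genes were called lower) and than in Cd209a (21.4%), but by unequal amounts. Against Xcr1 the DM genes and Ciita kept large differences, H2-DMb1 at -3.14 (SE 0.33), Ciita at -2.80 (SE 0.36) and H2-DMa at -2.77 (SE 0.24), and H2-Ab1 was at -2.12 (SE 0.27). H2-Aa (-0.93, SE 0.22), Cd74 (-0.92, SE 0.23) and H2-Eb1 (-0.88, SE 0.23) were closer to the Xcr1 level. In Ccr7-bearing cells the DM genes and Ciita rested on few counts. These were 16 and 53 UMIs of H2-DMa, 8 and 20 of H2-DMb1 and 12 and 19 of Ciita in libraries A and B.

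**Figure D2:**
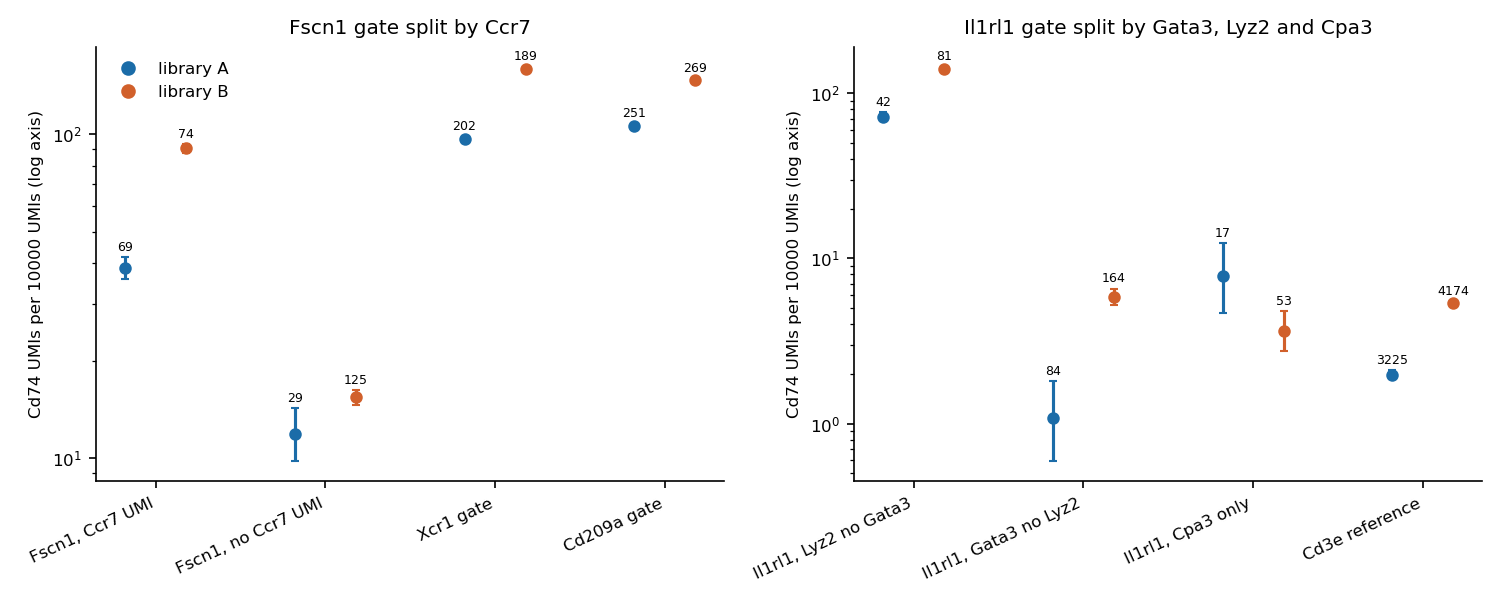
Cd74 UMIs per 10000 UMIs (log axes) in cells of the Fscn1 gate split by Ccr7, beside the Xcr1 and Cd209a gates, and in cells of the Il1rl1 gate split by Gata3, Lyz2 and Cpa3, beside the Cd3e reference, with the number of cells above each point. Bars are exact 95% Poisson intervals, which cover counting error only. Fscn1-gated cells with a Ccr7 UMI lie above those without (38.7 against 11.9 in library A, 90.5 against 15.4 in library B), and Gata3-bearing Il1rl1-gated cells lie near the reference.

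The Il1rl1 gate took its class II signal from a minority of its cells. Summed over the gate, Cd74 was 26.45 to 35.7 in library A and 24.1 to 70.5 in library B, and all 7 members were higher than in the Cd3e reference (17.4% of all genes were called higher), from 2.34 (SE 0.38) for Ciita to 3.62 (SE 0.26) for H2-DMb1. Per cell, however, the median of the 7 genes together was 2.65 per 10000 in library A and 9.79 in library B, and 49.5% of the library A cells had none. Cells with a Lyz2 UMI (a myeloid lysozyme) and no Gata3 UMI had a Cd74 level of 72.0 (42 cells) and 141 (81 cells), whereas cells with a Gata3 UMI, the transcription factor of these lymphoid cells, and no Lyz2 UMI had 1.08 (84 cells) and 5.86 (164 cells). With the gate limited to the latter, 0 of 7 members were called in either direction (18.7% of 6490 genes were), 4 had an unadjusted p under 0.05, and all 7 values lay below 0, from -1.93 (SE 0.93) for H2-DMb1 to -0.35 (SE 0.23) for Cd74. The higher level over the whole gate was therefore not seen in its Gata3-bearing cells without Lyz2. Of those cells, 18 of 84 and 76 of 164 also held a CD3 UMI (Cd3d, Cd3e or Cd3g), so the group shares a marker with the reference. Those without a CD3 UMI had a Cd74 level of 0.925 (66 cells) and 6.78 (88 cells) and were not tested apart.

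Krt8-gated epithelial cells were few in this CD45-sorted material, 4 in library A and 17 in library B, with 0 to 4 per sample, so no test was made. They were also the deepest, with medians of 21880 and 22520 UMIs per cell. Cd74 was seen in 1 of the 4 and all of the 17, yet thinned to 800 UMIs it was seen in 0% of the former (exact 95% interval up to 60.2%) and 17.65% of the latter (3.799 to 43.4), against 29.8% of reference cells in library B. A share at or below that of T cells is read as background. By level, however, the 4 Krt8-gated cells of Regression held 137 of the 178 Cd74 UMIs in library B, or 15.7 per 10000 (exact 95% Poisson interval 13.2 to 18.6), above the 6.49 of the reference cells of that sample. The other 13 held 41, or 0.774 per 10000 (0.556 to 1.05), below the 5.27 of the reference in the same samples.

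The chains did not keep the same proportion to one another across gates. H2-Ab1 over H2-Aa was 0.617 to 0.857 in Ms4a1-gated sums (n = 10, Balb/c left out), 0.904 to 1.02 in Cd209a (n = 9), 0.850 to 1.06 in C1qa (n = 10), 1.05 to 1.19 in Xcr1 (n = 8) and 0.161 to 0.707 in Fscn1 (n = 6). The Ms4a1 and Fscn1 sums lay below all Xcr1 and Cd209a sums. Ciita UMIs per 1000 UMIs of the 3 chains were 27.2 to 60.3 in Ms4a1 (n = 11), above every sum of Xcr1 (11.2 to 17.7, n = 8), Cd209a (7.35 to 16.8, n = 10) and C1qa (5.99 to 10.9, n = 11). Of these 4 gates, Ms4a1-gated cells thus had the most Ciita transcript for their chain transcripts. These ratios are descriptions without a test, and all gates of a sample share its library.

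**Figure D3:**
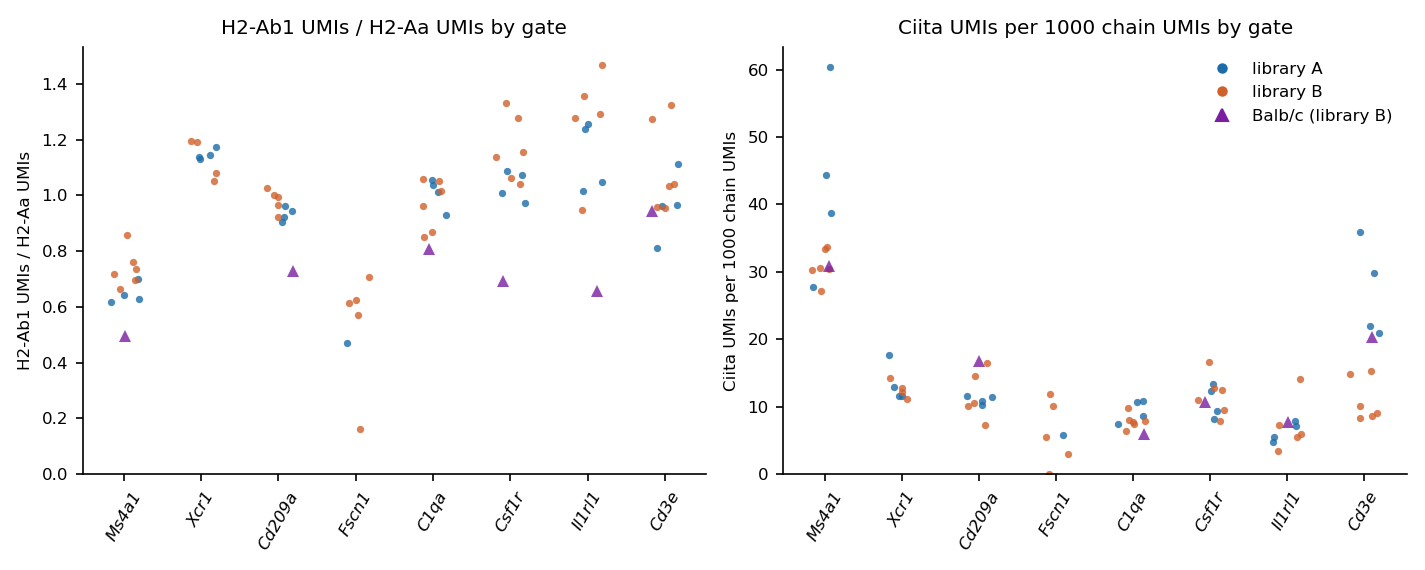
Ratios between members by gate on linear axes, 1 point per sum of gate and sample and triangles for Balb/c: H2-Ab1 over H2-Aa on the left, and Ciita UMIs per 1000 UMIs of H2-Aa, H2-Ab1 and H2-Eb1 together on the right. Ms4a1 points lie low on the left (0.617 to 0.857 without Balb/c) and high on the right (27.2 to 60.3).

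Tag names differed in which I-E chains they expressed. H2-Ea, the alpha chain that pairs with H2-Eb1 to make I-E, is silent in strains of the b haplotype and active in those of the d haplotype, to which Balb/c belongs. It gave 4639 UMIs in the Balb/c sample, 7 per 10000, and 10 to 32 UMIs in each of the other 6 samples of library B and 0 in each of the 4 samples of library A. Of Balb/c cells with at least 20 Cd74 UMIs, 228 of 253 (90.1%, exact 95% interval 85.8 to 93.5) had an H2-Ea UMI, against 0.699% to 1.16% in the other tags of that library. At least 3 H2-Ea UMIs were seen in 236 Balb/c cells and in 0 cells of any other sample. In library A the 4 samples had 416 to 461 cells with at least 20 Cd74 UMIs and none with H2-Ea.

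**Figure D4:**
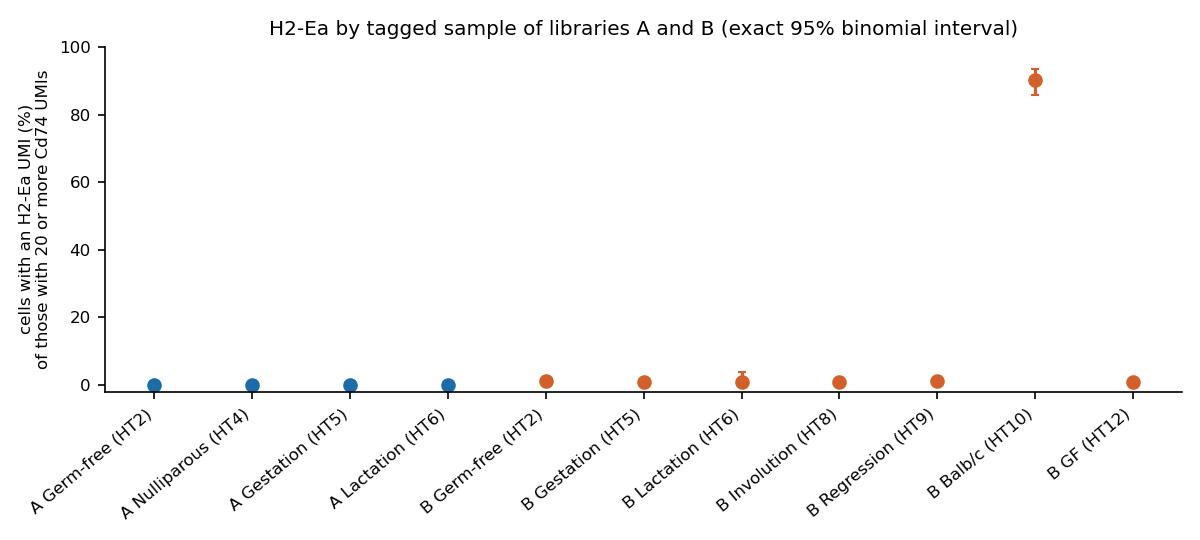
H2-Ea by sample: the share of cells with at least 20 Cd74 UMIs that held an H2-Ea UMI, in percent on the y axis, with exact 95% binomial intervals as bars; HT2 is drawn under its disputed sheet name. The Balb/c sample stands at 90.1%, the other samples of library B at 0.699% to 1.16% and those of library A at 0%.

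The Balb/c sample also had the lowest H2-Ab1 over H2-Aa of its gate in the Ms4a1 (0.497), Cd209a (0.7305), C1qa (0.809), Csf1r (0.692) and Il1rl1 (0.6585) gates, and the lowest Cd209a level of every member save Ciita and H2-DMa among the samples of both libraries. Its Cd209a-gated cells gave 67.7 for Cd74, 31.55 for H2-Aa, 23.05 for H2-Ab1 and 19.6 for H2-Eb1, against 97.1, 53.2, 51.3 and 46.7 in the lowest of the other samples. The counts were made on build mm10, per the submitters' processing notes, and these genes vary between strains. In the C1qa gate of Balb/c Cd74 was 174 and H2-Aa 72.0, both within the range of the other library B samples. Its 15 Xcr1-gated cells, below the minimum of 20, gave 84.1 for H2-Aa. In the Ms4a1 gate its Cd74 (64.4) was the lowest of library B. The Cd209a gate was mixed, and the parts of its makeup and of read mapping in the Balb/c values were not tested.

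Lactation was then compared with Gestation in each gate with at least 20 cells in all 4 samples (edgeR's quasi-likelihood test on summed counts, library year as a block). In Csf1r-gated cells 4 of 7 members rose, where 0.824% of 4614 genes were called higher. H2-DMb1 was 1.035 in Gestation and 2.54 in Lactation in library A and 1.05 and 2.72 in library B, or 1.355 on the log2 scale (SE 0.27, adjusted p 0.00029). H2-Ab1 went from 26.2 to 37.6 in library A and from 12.9 to 30.9 in library B (0.91, SE 0.23, adjusted p 0.0092). H2-Eb1 went from 20.5 to 28.4 and from 9.86 to 24.6 (0.92, SE 0.23, adjusted p 0.0092), and H2-Aa from 24.5 to 34.5 and from 11.3 to 26.7 (0.89, SE 0.23, adjusted p 0.012). Both Lactation samples lay above both Gestation samples for each of the 4. Cd74 (0.72, SE 0.23, adjusted p 0.11), H2-DMa (0.76, SE 0.25, adjusted p 0.14) and Ciita (0.72, SE 0.34, adjusted p 0.55) did not pass, and all 7 had an unadjusted p under 0.05.

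These 4 calls were fragile. All were lost when any 1 of the 4 samples was left out (H2-Aa then ranged from 0.20 to 1.73 and H2-DMb1 from 1.15 to 1.59), without the year block, with DESeq2's Wald test, with doublet calls kept, and in cells without CD3 UMIs. In the last 4 of these settings 0 of all 4614, 4614, 5137 and 3837 genes were called, so the loss was not particular to the members. There 1, 6, 6 and 6 members had an unadjusted p under 0.05. Their medians were 0.80, 0.90, 0.90 and 0.92, beside 0.89 in the reported fit. The makeup of the gate also moved: cells in which the 7 genes reached 100 UMIs per 10000 were 38.7% of 186 in Gestation and 47.9% of 117 in Lactation in library A, and 15.1% of 199 and 29.2% of 65 in library B. Ccr2 was seen in 26.3% and 43.6% of the cells in library A and 30.65% and 47.7% in library B, C1qb in 33.9% and 37.6% and in 13.1% and 27.7%, and Cd3e in 6.45% and 9.40% and in 37.2% and 29.2%. The part of this makeup in the result was not tested.

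In Ms4a1-gated cells no member passed, and the fitted values of all 7 lay below 0. Cd74 was 50.9 in Gestation and 36.6 in Lactation in library A and 104.5 and 67.3 in library B (-0.70, SE 0.14, adjusted p 0.061), H2-Eb1 was 20.6 and 15.7 and 26.75 and 15.3 (-0.75, SE 0.17, adjusted p 0.10), and H2-Aa was 32.4 and 29.5 and 38.2 and 21.2 (-0.64, SE 0.18, adjusted p 0.21). Ciita and H2-DMa went in opposite directions in the libraries: Ciita was 2.04 in Gestation and 3.825 in Lactation in library A and 3.02 and 1.61 in library B, and H2-DMa 2.95 and 4.19 and then 4.13 and 1.97. The count was 0 of 7 with edgeR, where 0.560% of 3751 genes were called, with 4 at an unadjusted p under 0.05 and 0 called by DESeq2. The Lactation sums rested on 43 and 40 cells, against 353 and 609 in Gestation. Cd79a was seen in 92.3% of the Gestation and 67.5% of the Lactation cells of library B and Cd3e in 6.24% and 25%, and Ms4a1-gated cells of library B without a Cd79a UMI had a Cd74 level of 35.15 against 114 in those with one. In library A Cd79a was seen in 69.4% of the Gestation and 65.1% of the Lactation cells, and the Cd74 level was 49.05 without a Cd79a UMI and 46.55 with one. The part of these cells in the lower values was not tested.

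**Figure D5:**
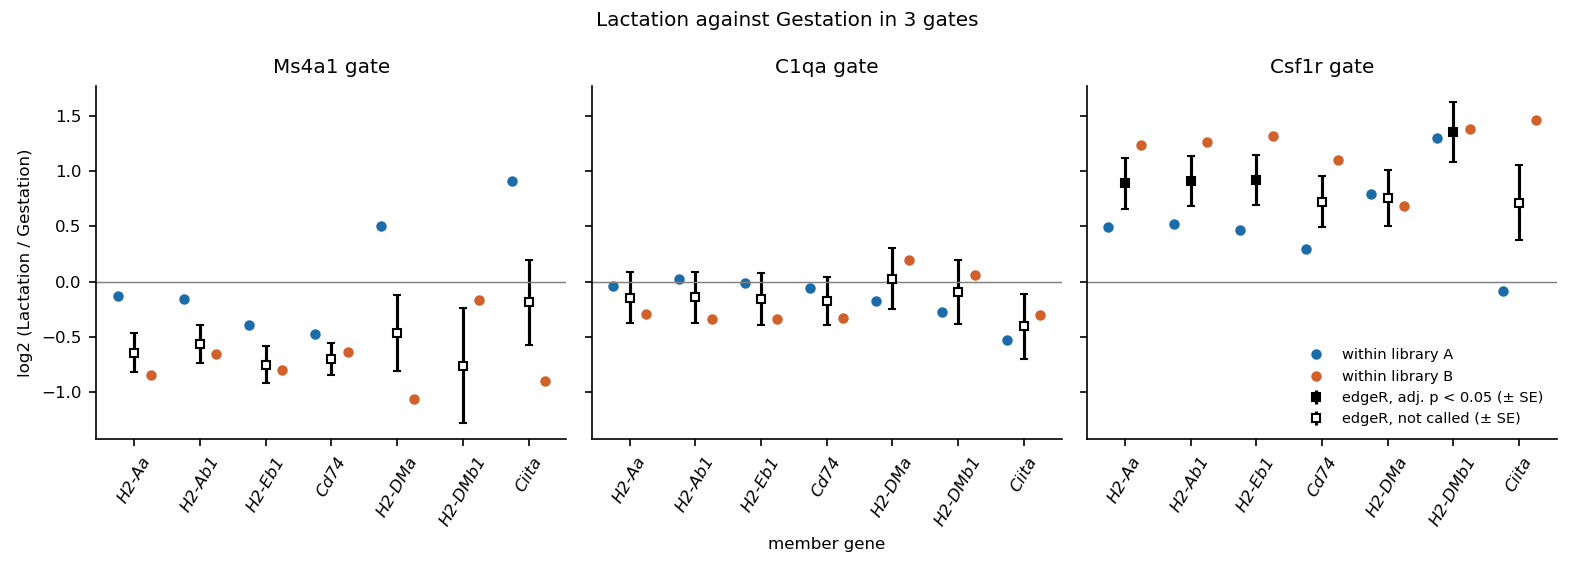
Log2 of Lactation over Gestation for each member (x axis) in the Ms4a1, C1qa and Csf1r gates: circles are the ratio of levels within each library, and squares the edgeR estimate with its SE, filled where the adjusted p was under 0.05. The 4 filled squares are H2-Aa (0.89), H2-Ab1 (0.91), H2-Eb1 (0.92) and H2-DMb1 (1.355) in the Csf1r gate; H2-DMb1 in the Ms4a1 gate has no library A circle because Lactation had 0 UMIs.

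Macrophages showed no call. In the C1qa gate 0 of 7 members passed (0.569% of 7209 genes did), with 0 at an unadjusted p under 0.05 and 0 called by DESeq2, and Cd74 was 148 and 142 in library A and 249.5 and 198 in library B (-0.18, SE 0.22). In the Cd3e reference 0 of the 6 members that passed the filter on low counts were called (0.0546% of 9162 genes were, 0 members at an unadjusted p under 0.05, 0 by DESeq2). Over all tagged cells of a sample the count was 0 of 7 (0.481% of 13108 genes, 1 member at an unadjusted p under 0.05, 0 by DESeq2), with H2-DMb1 highest at 0.61 (SE 0.18, adjusted p 0.39). In such sums fewer cells of a type and less RNA per cell cannot be told apart. The Xcr1, Cd209a, Fscn1 and Il1rl1 gates held 18, 13, 11 and 16 Lactation cells in library B and were not tested.

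The names with 1 sample had no replicate, and their values stand beside the others of their library. In the C1qa gate of library B Cd74 was 204 in Involution, 162 in Regression, 246 in GF, 174 in Balb/c and 122 in HT2, against 249.5 in Gestation and 198 in Lactation. In the Ms4a1 gate it was 108 in Involution, 115 in Regression, 112 in GF, 64.4 in Balb/c and 78.8 in HT2, so the samples with many B cells (494, 885 and 519 cells) lay together and those with few (74 and 73) lower, beside Lactation (40 cells). In the Csf1r gate Cd74 was highest in Regression (112.5) and Involution (90.9) and lowest in Gestation (36.4), GF (45.9) and Balb/c (48.0). In library A the Nulliparous sample had the lowest C1qa level of each of the 7 members, while its Xcr1 gate gave the highest Ciita of any Xcr1 sum, 3.70.

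The share of a sample's class II transcripts that each gate supplied differed between samples. C1qa-gated cells were 8.71% of the tagged cells of the Gestation sample of library A and held 50.8% of its Cd74 UMIs. In Lactation of library A they were 9.665% and held 53.3%. In Gestation of library B they were 2.55% and held 27.2%, so the share also differed between libraries under 1 name. In Regression of library B they were 5.602% of cells with 15.6% of Cd74 UMIs, and Ms4a1-gated cells were 37.0% of cells with 31.3% of Cd74 UMIs and 52.4% of Ciita UMIs. Xcr1-gated cells were 2.30% of the Lactation cells of library B and held 14.2% of its Cd74 and 20.7% of its Ciita UMIs. The remaining UMIs lay in other gates and in cells with no gate gene or with conflicting ones. Cells with neither a gate gene nor a Cd3e UMI were 8233 of 15287 in library A and 3868 of 14612 in library B. The parts of makeup, library and depth in these shares were not tested.

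Other genes of the pathway, from a list of 27 names of which 25 were found, did not move as a block with the members. Between C1qa and Ms4a1, 7 of 21 tested were higher and 11 lower in C1qa, with a median of -0.42, beside 35.2% and 31.0% of all genes. The higher ones included the endosomal proteases Lgmn (3.66, SE 0.17), Ctsl (3.26, SE 0.29) and Ctss (2.86, SE 0.18), the thiol reductase Ifi30 (1.23, SE 0.17) and the costimulatory gene Cd86 (1.11, SE 0.17). The lower ones included the chains of the DM inhibitor DO, H2-Oa (-2.93, SE 0.24) and H2-Ob (-4.88, SE 0.21), the paralogs H2-DMb2 (-3.87, SE 0.24) and H2-Eb2 (-4.615, SE 0.35), and the B cell transcription factor Spib (-6.035, SE 0.27). H2-DMb1 and H2-DMb2, whose windows above share the spaced X and Y cores, thus differed in opposite directions between these gates, as did H2-Eb1 and H2-Eb2. Both pairs are close paralogs, so their counts carry the uncertainty stated for H2-DMb1.

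In the Fscn1 gate the list was divided too. These values are of the whole mixed gate, where 29 of 98 cells in library A and 125 of 199 in library B held no Ccr7 UMI. None is given for Ccr7-bearing cells alone. Against Xcr1, 8 of 21 were higher and 5 lower, where 20.0% and 17.7% of all genes were. Ctsl (4.78, SE 0.60), H2-Eb2 (3.07, SE 0.54), Lgmn (2.08, SE 0.35), the costimulatory receptor Cd40 (1.83, SE 0.43) and Cd83 (0.72, SE 0.28), which protects class II from turnover, were higher, and Marchf1 (-3.97, SE 0.38), the ubiquitin ligase that drives that turnover, H2-Ob (-3.75, SE 0.38), Irf8 (-3.34, SE 0.36), Cd86 (-2.525, SE 0.36) and H2-Oa (-2.20, SE 0.45) were lower. Against Cd209a the list was split 6 and 6 (15.9% and 15.7% of all genes), with Cd40 (2.00, SE 0.41), Cd83 (1.54, SE 0.28) and H2-Eb2 (3.30, SE 0.51) higher and Marchf1 (-3.64, SE 0.39) lower. Mean levels of H2-Eb2 were 0.711 ± 0.645 (SD, n = 6) in the Fscn1 gate and 0.827 ± 0.374 (n = 11) in the Ms4a1 gate, against 0.0642 ± 0.0904 (n = 8) in Xcr1 and 0.0337 ± 0.0416 (n = 11) in C1qa. In the comparison of Lactation with Gestation 0 of 16 list genes passed in the Ms4a1 gate, 0 of 18 in C1qa, 0 of 13 in Csf1r (1.24% of all genes) and 0 of 17 in the reference. Over all tagged cells 3 of 25 fell (0.351% of all genes), Spib (-2.20, SE 0.22), H2-Ob (-1.78, SE 0.23) and H2-Oa (-1.20, SE 0.18). All 3 were higher in the Ms4a1 than in the C1qa gate. Ms4a1-gated cells were 8.01% of tagged cells in Gestation and 1.78% in Lactation in library A, and 18.3% and 5.11% in library B. The part of these cell numbers in the fall was not tested.

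In the remaining comparisons the balance differed. Between Cd209a and Ms4a1, 4 of 21 were higher and 13 lower, beside 27.1% and 24.1% of all genes. Between C1qa and Csf1r 8 were higher, led by Lgmn (2.54, SE 0.15) and Ctsl (2.48, SE 0.27), and 3 lower (18.9% and 18.6% of all genes). Between Cd209a and C1qa 5 were higher and 6 lower (14.1% and 17.4%), with Spib at 4.28 (SE 0.34) and Lgmn at -3.845 (SE 0.19). Between Xcr1 and Cd209a, where no member was called, 5 were higher and 6 lower (10.6% and 11.6%), among them Irf8 (2.61, SE 0.28), the transcription factor of type 1 dendritic cells, and Ctss (-1.24, SE 0.20). Between Il1rl1 and the reference 8 were higher and 1 lower over the whole gate (17.4% and 12.3%).

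The genes whose levels followed the mean of the members most closely, by Pearson's r over 78 sums of gate and sample and among 6288 genes, were Plekho1 (0.943), Fgd2 (0.939), Unc93b1 (0.913), Ly86 (0.912), Pld4 (0.9085), Irf5 (0.868), Themis2 (0.864), Stx7 (0.861), Lyn (0.856) and Spi1 (0.855). Fgd2 averaged 2.77 UMIs per 10000 in the Xcr1 gate, 1.51 in Cd209a, 1.49 in C1qa, 0.963 in Ms4a1 and 0.0574 in the reference. Ly86 averaged 4.70 in C1qa, 2.83 in Cd209a, 2.21 in Ms4a1 and 1.38 in Xcr1. The sums share libraries and depth, so these correlations are descriptions.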

How the data were processed

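Single-cell RNA and hash tag libraries were made from CD45+ mammary cells with a 10x 3′ v3.1 chemistry, per the labels' protocols. The authors' deposited values are raw UMI counts per gene and cell and raw counts per hash tag and cell, made with Cell Ranger 6.1.0 on build mm10 per the submitters' processing notes, while the library A matrix names Cell Ranger 4 per the file headers. The members and all lists were chosen with earlier results of these data known.

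Cells with at least 500 UMIs, 300 genes and at most 10% mitochondrial UMIs were kept. Tags were called with HTODemux (Seurat 5.3.0, positive quantile 0.99), and Scrublet calls (scanpy 1.11.5, expected rate 0.08) were removed. Names follow the deposited tag sheets, and all columns were matched to a sample. UMIs were summed per gate and sample (at least 20 cells) and tested with edgeR 4.0.16 (quasi-likelihood test, TMM scaling, filterByExpr, Benjamini-Hochberg adjustment over all genes tested, threshold 0.05). Lactation was compared with Gestation with library year as a block, since each library holds 1 sample of each stage, and gates were compared in 1 fit with the sample as a block because all gates of a sample come from the same tagged cells. Levels are UMIs per 10000 UMIs, and shares have exact (Clopper-Pearson) 95% intervals that cover counting error only. Named genes are the 7 members, the pathway list where it passed the test, H2-Ea, and the 10 genes of highest Pearson's r with the mean of the members (log2 CPM with a pseudocount of 1, mean CPM of at least 20). BC051142, Fgd2 and Ly86 were singled out after their values were seen. DESeq2 1.42.0 was an alternative tool. On simulated data with 100 genes changed 2-fold, 50 of them were recovered in the Ms4a1 comparison of Lactation with Gestation (3450 genes). The number was 60 in C1qa (6724 genes), 69 in Csf1r (4300 genes) and 99 between the C1qa and Ms4a1 gates (6519 genes). Counts were drawn with a fixed spread and no difference between libraries, and the changed genes had levels above the median. These numbers are therefore not the power of the real comparisons.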

Additional observations from a re-analysis of the deposited data

Results flagged for a closer look

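In Csf1r-gated cells Cd74 and the 3 chain genes were higher in Lactation than in Gestation within both libraries, and in Ms4a1-gated cells they were lower within both. The difference between the gates was not tested. In the Csf1r gate the log2 ratio of Lactation to Gestation in libraries A and B was 0.30 and 1.10 for Cd74, 0.50 and 1.24 for H2-Aa, 0.52 and 1.26 for H2-Ab1, and 0.47 and 1.32 for H2-Eb1. In the Ms4a1 gate it was -0.48 and -0.63 for Cd74, -0.13 and -0.85 for H2-Aa, -0.16 and -0.66 for H2-Ab1, and -0.39 and -0.80 for H2-Eb1. The Ms4a1 values rest on 43 and 40 Lactation cells, and none of them passed the test given with the comparison.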

How the results depend on the processing

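Limits: 4 of the gates are mixed, Gestation and Lactation have 1 sample per library, Lactation gates hold few cells, and tags may pool animals. Of 1251 fold changes of members under an alternative, 578 passed the threshold there and in the reported fit, 587 passed in neither (44 of them with the other sign), 66 lost and 20 gained their call. Of the 66, 7 had the other sign, and none was called in the other direction. Of 504 levels 13 moved by over 1 SD, and 97 of 112 shares left their interval when cells were thinned to 800 UMIs. The cause of these changes was not tested unless stated.

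Over all gates together, 4 members were called between Lactation and Gestation. This became 0 in cells without CD3 UMIs, 0 with the top tag rule (under which only the reference and all-cell fits were possible), 7 without the filter on low counts, 0 with DESeq2's Wald test, 0 with no replicate block (year) and 0 to 0 when 1 sample was left out. The Csf1r gate's 4 became 0 without CD3 UMIs, with doublet calls kept, with DESeq2's Wald test and without the replicate block, and 0 to 0 leaving out 1 sample. In the first 4 of these settings 0 of all genes tested were called. The Ms4a1 gate's 0 became 4 with doublet calls kept, 1 with shared barcodes left out and 4 without the filter. Xcr1 minus Cd209a went from 0 to 3 without the filter. Cd209a minus C1qa went from 2 to 0 with the double gate minimum, without CD3 UMIs, in library B alone and without the sample block, to 1 (Cd74, lower) with the top tag rule or library A alone, and to 4 without the filter. With the Clec10a and Ly6c2 gates or library totals it also went to 1, but both calls were lost there and H2-DMa was called higher in Cd209a (0.48 and 0.45). C1qa minus Csf1r kept 5 of 7 calls with library A alone and with the double gate minimum, and 6 without CD3 UMIs. Il1rl1 minus Cd3e went from 7 to 0 in Gata3-bearing cells without Lyz2, where the values were -1.19 (Ciita), -0.98 (H2-DMa), -1.93 (H2-DMb1), -0.66 (H2-Ab1), -0.66 (H2-Aa), -0.45 (H2-Eb1) and -0.35 (Cd74). Narrowed gates and shared barcodes were alternatives chosen after seeing the data.

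Counts over all genes moved by more than 1.5 times as follows. With library A alone C1qa minus Csf1r fell from 2685 to 1132, C1qa minus Ms4a1 from 4744 to 2916, Cd209a minus C1qa from 2255 to 1079, Cd209a minus Ms4a1 from 3669 to 2040, Il1rl1 minus Cd3e from 2130 to 1089 and Xcr1 minus Cd209a from 1595 to 643 (900 with the double gate minimum). With narrowed gates C1qa minus Csf1r gave 1734 and Il1rl1 minus Cd3e 1214, and without the filter Fscn1 minus Cd209a went from 2263 to 3406. Calls between Lactation and Gestation ranged over the alternatives from 0 to 66 in C1qa, 0 to 61 in Cd3e, 0 to 57 in Csf1r, 0 to 94 in Ms4a1 and 0 to 415 in all cells. Not run were Krt8 minus Cd3e (0 to 4 cells per sample), Fscn1 in library A alone, Ms4a1 between Lactation and Gestation at 1000 UMIs or more, the other gates of that comparison with the top tag rule, and Csf1r with Ly6c2.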

Other observations

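In library A, 745988 barcodes with fewer than 100 UMIs gave a measure of free RNA. They held 3826915 UMIs in all, with Cd74 at 21.96 per 10000, H2-Aa at 14.8, H2-Ab1 at 14.4, H2-Eb1 at 10.2, H2-DMa at 1.40, H2-DMb1 at 0.7395 and Ciita at 0.426. Each lay above the T cell reference of that library, where Cd74 was 2.32 and Ciita 0.0764, and below the C1qa gate. The milk protein gene Csn2 stood at 62.25 and H2-Ea at 0 (upper limit 0.00964).

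Il1rl1-gated cells with Cpa3, a mast cell protease, and neither Gata3 nor Lyz2 had Cd74 at 7.85 per 10000 (17 cells) in library A and 3.65 (53 cells) in library B, near the T cell reference of library B and above that of library A.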
